A study of Mus musculus with 12 samples.

Results

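The collagen genes of mouse liver were compared between sedentary (Con) and chronically exercised (Exe) mice. They were taken as every listed gene whose symbol names a collagen chain (Col, a number, the letter a and a number), which gave 39 of the 16821 genes. They comprised 10 fibrillar collagens, 8 basement membrane collagens and 21 others. The mice were adult C57BL/6J males, 6 in each group, and each gave a library from its liver RNA. Exe mice ran on a motorized treadmill at moderate intensity for 6 weeks, and Con mice were kept in the same room without running. The samples are saline-perfused whole liver with all its cell types, dissected so as to leave out the main vessels and ducts. The deposited values are FPKM (fragment counts divided by transcript length and by library size), which are per length and can be compared between genes.

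Collagens are secreted proteins whose chains wind into triple helices and form the scaffold between cells. Fibrillar collagens make the cables of the portal tracts and the capsule, and accumulate as scar in liver fibrosis. Basement membrane collagens form sheets under vessels and bile ducts. FACIT collagens sit on the surface of fibrils, type VI collagen forms beaded filaments, and a few collagens span the cell membrane. In liver, stellate cells and portal fibroblasts are known as the main makers of fibrillar collagen, and hepatocytes are known to make collagen XVIII. In whole liver RNA, fewer cells of a type and less RNA per cell cannot be told apart.

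The collagen RNA of these livers was mostly Col18a1, and no collagen gene tested passed an adjusted p of 0.05 between Con and Exe. Of the 39 genes, 13 reached 1 FPKM in 6 or more of the 12 mice and were tested (5 fibrillar, 4 basement membrane and 4 other). With limma on log2(FPKM + 1) and Benjamini-Hochberg adjustment over all 10241 genes tested, 0 of the 13 had an adjusted p of 0.05 or less, as did 0.0% of the genes in the fit. At p of 0.05 before adjustment, 1 of the 13, Col27a1, was higher in Exe, against 4.27% of the whole set, and 0 were lower, against 1.94%. The groups overlapped for all 13 genes, while 0.254% of all genes tested had groups that did not overlap. The difference, as a log2 fold change, was below 0 for 10 of the 13 and above 0 for 3. It was above 0 for 57.5% of all genes tested. Its median was -0.16 over the 13 collagen genes and 0.02 over all genes tested. The collagen median moved with the mice and genes that entered it: it was -0.04 without Con 1, -0.25 without Con 5, -0.05 over the 10 genes at 1 FPKM in all mice and -0.016 over all 39 genes. By class it was -0.30 for the fibrillar collagens (-0.47 without Con 5, -0.18 without Exe 1, -0.07 with no filter), -0.02 for the basement membrane collagens (-0.11 without Con 5, 0.02 without Exe 2) and -0.12 for the others (-0.22 without Con 5, -0.06 without Exe 1). On log2(FPKM + 0.1) instead, the median was -0.24 over the 13 genes. By class it was then -0.33 for the fibrillar, -0.02 for the basement membrane and -0.18 for the other collagens. Adding 1 draws the changes of low genes toward 0, which weighs on the medians over all 39 genes and with no filter.

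Individual mice differed more than the groups did. Con 5 had the lowest value among the Con mice for 10 of the 13 genes, and Exe 5 had the highest among the Exe mice for 9 of the 13. The results below are therefore also given without Con 5 where its removal changed them. From the steps in the low FPKM values, depth was estimated at about 17100000 mapped fragments per mouse. One FPKM then corresponds to about 97.4 fragments for Col1a1, and the 12 mice held about 37.0 to 336 Col1a1 fragments. Counting error for Col1a1 came to 7.91% of the mean, whereas the coefficient of variation between mice was 54.9% in Con and 52.5% in Exe.

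**Figure D1:**
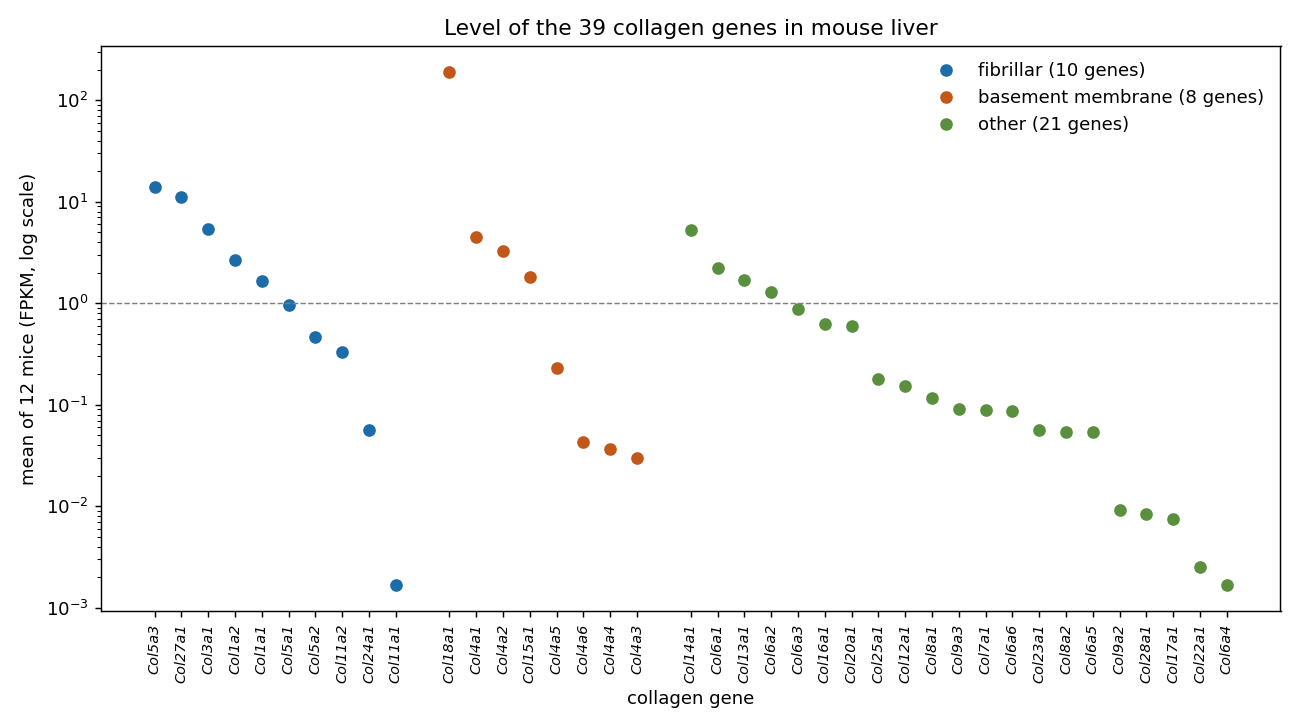
Mean FPKM of the 12 mice (log scale) for each of the 39 collagen genes, ordered within the fibrillar, basement membrane and other classes; each point is 1 gene and the dashed line marks 1 FPKM. Col18a1 stands at 192, above the next gene, Col5a3, at 13.8, and 26 genes did not pass the filter at 1 FPKM.

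Col18a1 (gene ID 12822), a basement membrane proteoglycan whose end is cut off as endostatin, was the most abundant collagen RNA in every mouse. In Con it ranged from 182 to 202 FPKM with a median of 186 (188 ± 7.54, SD, n = 6), and in Exe from 177 to 216 with a median of 193 (195 ± 15.9, n = 6). Exe mice lay both above and below all Con mice, with 2 on each side. The log2 fold change was 0.05 (SE 0.06, limma adjusted p = 0.947), with a 95% confidence interval of -0.08 to 0.17. Col18a1 made up 72.1 to 81.0% of the summed collagen FPKM of a mouse, with a median of 74.8%. It also varied least of the 13 genes, with a coefficient of variation of 4.01% in Con and 8.15% in Exe.

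Col18a1 has 2 promoter windows in RefSeq, both on the minus strand of chromosome 10 of build GRCm38.p6, at chr10:77113656-77113955 and chr10:77166481-77166780. The FPKM are per gene and do not tell these starts apart. They are shown because this gene carries most of the collagen signal, each from 250 bases before to 50 bases after the start. Capitals mark the CCAAT box (CCAAT), the GC box (GGGCGG) and the TATA box (TATAAA) on either strand, with no overlap between them.
Col18a1 first window: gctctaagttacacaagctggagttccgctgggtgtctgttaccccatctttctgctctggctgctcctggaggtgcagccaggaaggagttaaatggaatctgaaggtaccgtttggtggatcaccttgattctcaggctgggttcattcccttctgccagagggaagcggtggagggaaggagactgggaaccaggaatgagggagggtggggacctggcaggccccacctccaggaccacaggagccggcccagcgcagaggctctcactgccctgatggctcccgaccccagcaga
Col18a1 second window: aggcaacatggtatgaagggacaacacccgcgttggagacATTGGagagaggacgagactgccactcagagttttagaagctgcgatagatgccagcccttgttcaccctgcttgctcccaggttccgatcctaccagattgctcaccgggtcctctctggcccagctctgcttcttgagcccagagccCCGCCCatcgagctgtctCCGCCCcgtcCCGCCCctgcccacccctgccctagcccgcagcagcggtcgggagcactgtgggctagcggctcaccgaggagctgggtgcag
The first window held none of the 3 motifs, and the second held 1 CCAAT box and 3 GC boxes. Of all 32851 windows of the RefSeq table, 37.4% held a CCAAT box, 35.7% a GC box and 13.6% a TATA box. Of the 39 collagen genes 32 had a window, and of their 34 windows 12 held a CCAAT box, 23 a GC box and 4 a TATA box.

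The remaining basement membrane genes were far lower. Col4a1 (12826) and Col4a2 (12827) encode the chains of the common type IV collagen network. Col4a1 was at 2.94 to 5.50 FPKM in Con, median 4.64 (4.48 ± 0.902), and at 3.47 to 6.67 in Exe, median 3.95 (4.42 ± 1.19). Its log2 fold change was -0.03 (SE 0.14, limma adjusted p = 0.987). Col4a2 was at 2.10 to 3.79 FPKM in Con, median 3.55 (3.34 ± 0.649), and at 2.66 to 4.17 in Exe, median 3.13 (3.27 ± 0.527). The lowest of all 12 mice was Con 5 and the highest was Exe 5 for both chains, and the other mice were mixed between the groups. The Col4a2 log2 fold change was -0.02 (SE 0.11, limma adjusted p = 0.993), and its sign changed in 5 of the 12 fits that left out a mouse, as did that of Col4a1 in 5. The 95% confidence intervals were -0.33 to 0.28 for Col4a1 and -0.26 to 0.23 for Col4a2.

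Col4a1 and Col4a2 are head-to-head neighbours with no protein-coding gene between them. In RefSeq their starts, on opposite strands of chromosome 8, are at 11312826 for Col4a1 and at 11312805 for Col4a2. These positions differ by 21 bases, and the genes overlap between them. Their windows, chr8:11312777-11313076 (minus strand) and chr8:11312555-11312854 (plus strand) of GRCm38.p6, share 78 bases. They are shown because their RNAs followed each other across mice, as given further on. So did those of Col1a1 and Col3a1, which are not neighbours, and a link to the shared stretch was not tested. Capitals mark the same motifs.
Col4a1: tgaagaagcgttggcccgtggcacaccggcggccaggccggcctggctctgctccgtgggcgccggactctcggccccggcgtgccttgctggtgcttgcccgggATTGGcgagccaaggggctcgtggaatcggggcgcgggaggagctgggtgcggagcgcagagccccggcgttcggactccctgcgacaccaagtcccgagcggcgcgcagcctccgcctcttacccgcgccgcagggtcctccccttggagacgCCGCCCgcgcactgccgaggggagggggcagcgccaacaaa
Col4a2: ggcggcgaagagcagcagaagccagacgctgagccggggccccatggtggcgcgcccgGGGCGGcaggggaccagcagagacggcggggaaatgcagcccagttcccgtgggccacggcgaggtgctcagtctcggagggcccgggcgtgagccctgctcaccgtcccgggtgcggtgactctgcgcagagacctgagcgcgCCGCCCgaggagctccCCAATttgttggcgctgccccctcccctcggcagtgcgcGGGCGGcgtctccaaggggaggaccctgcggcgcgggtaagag
Each window held 1 CCAAT box. The Col4a1 window held 1 GC box and the Col4a2 window 3, and neither held a TATA box.

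Col15a1 (12819), which encodes a relative of collagen XVIII in vessel walls, was at 1.05 to 3.60 FPKM in Con, median 1.74 (1.98 ± 0.948), and at 0.810 to 2.51 in Exe, median 1.57 (1.65 ± 0.680). Its log2 fold change was -0.16 (SE 0.21, limma adjusted p = 0.948), with 1 Exe mouse below all Con mice and none above. That value was -0.02 without Con 1 and -0.25 without Con 5. Of the other type IV chains, Col4a5 was at 0.10 to 0.38 FPKM over all mice, while Col4a3, Col4a4 and Col4a6 had means under 0.1 FPKM. Col4a4 (12829), 1 chain of the type IV network known from the kidney filter, was at 0.01 to 0.04 FPKM in Con and 0.03 to 0.08 in Exe. This is about 1.69 to 13.5 fragments per mouse. It was the 1 gene among the 26 below the filter whose exact two-sided permutation p was under 0.05 (p = 0.0346, not adjusted for the 26), and 3 of 6 Exe mice were above all Con mice. Summed over the 8 basement membrane genes, Con mice held 191 to 212 FPKM (198 ± 8.11) and Exe mice 186 to 224 (204 ± 14.9), a ratio of the means of 1.03. Without Col18a1, a choice made after seeing the data, the ratio was 0.961.

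Among the fibrillar collagens the most abundant were not the classical type I and III chains. Col5a3 (53867), a chain of the fibril-regulating type V collagen, was at 13.2 to 17.5 FPKM in Con, median 14.8 (14.98 ± 1.48). In Exe it ranged from 7.32 to 20.2, median 11.4 (12.7 ± 5.24). The mice Exe 1, Exe 2 and Exe 6, were at 7.32, 8.81 and 8.83 FPKM, below all Con mice, while Exe 4 at 20.2 was above them all. The coefficient of variation was 9.86% in Con and 41.2% in Exe, and that difference in spread was not tested. The log2 fold change was -0.30 (SE 0.20, limma adjusted p = 0.899), and it was -0.18 without Exe 1 and -0.45 without Exe 4.

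Col27a1 (373864), a fibrillar collagen best known from cartilage, was the gene nearest to a difference. In Con it ranged from 5.45 to 11.2 FPKM, median 8.34 (8.41 ± 2.10), and in Exe from 6.87 to 26.3, median 13.5 (14.0 ± 7.0). Of the 6 Exe mice 4 were above all Con mice, and the other two lay within the Con range. The ratio of the means was 1.66 and the log2 fold change 0.58 (SE 0.26, 95% confidence interval 0.02 to 1.14). The unadjusted limma p was 0.0444 and the adjusted p 0.799, and the exact two-sided permutation p was 0.0823. The unadjusted p no longer passed 0.05 with robust variance moderation, with no filter, or in 8 of the 12 fits that left out a mouse (it passed without Con 5, Con 6, Exe 3 or Exe 5). Without single mice, the log2 fold change lay between 0.38 (without Exe 6) and 0.74 (without Exe 5). The lowest Con value was that of Con 1 and the lowest Exe value that of Exe 5. These were also the mice with the highest Lcn2, an acute-phase gene, at 719 and 609 FPKM against 5.93 to 234 in the other 10. Whether the 2 genes move together was not tested.

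The type I and III chains, which build the common collagen cables, had lower means in Exe but overlapped widely. Col1a1 (12842) was at 0.380 to 3.45 FPKM in Con, median 2.31 (2.0 ± 1.1), and at 0.730 to 2.52 in Exe, median 1.10 (1.29 ± 0.675). All Exe values lay within the Con range, between Con 5, the lowest mouse, and Con 3, the highest. Its log2 fold change was -0.34 (SE 0.26, limma adjusted p = 0.922).

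Col1a2 (12843) was at 1.16 to 4.37 FPKM in Con, median 3.57 (3.16 ± 1.2), and at 1.47 to 3.12 in Exe, median 2.16 (2.19 ± 0.550). For Col1a2 the log2 fold change was -0.34 (SE 0.20, limma adjusted p = 0.863). Col3a1 (12825), the chain of reticular fibres, was at 2.08 to 9.45 FPKM in Con, median 6.93 (6.14 ± 2.70), and at 3.21 to 7.87 in Exe, median 4.53 (4.75 ± 1.68). Of the 6 Con mice 4 had more Col1a2 than every Exe mouse, and 1 had more Col3a1. The Col3a1 log2 fold change was -0.25 (SE 0.27, limma adjusted p = 0.935). The 95% confidence intervals reached from -0.90 to 0.22 for Col1a1, from -0.76 to 0.09 for Col1a2 and from -0.83 to 0.33 for Col3a1.

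The RefSeq windows of Col1a2, at chr6:4505368-4505667, and of Col3a1, at chr1:45311288-45311587, both on the plus strand of GRCm38.p6, are shown as those of 2 genes that make the main fibrils. Col1a1 was not among the genes with a window. Capitals mark the motifs named above.
Col1a2: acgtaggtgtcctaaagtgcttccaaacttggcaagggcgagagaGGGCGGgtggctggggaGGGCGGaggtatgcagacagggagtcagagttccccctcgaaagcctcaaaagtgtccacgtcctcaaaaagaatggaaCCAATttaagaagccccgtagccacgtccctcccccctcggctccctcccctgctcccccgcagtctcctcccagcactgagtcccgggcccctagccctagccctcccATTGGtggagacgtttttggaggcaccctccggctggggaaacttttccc
Col3a1: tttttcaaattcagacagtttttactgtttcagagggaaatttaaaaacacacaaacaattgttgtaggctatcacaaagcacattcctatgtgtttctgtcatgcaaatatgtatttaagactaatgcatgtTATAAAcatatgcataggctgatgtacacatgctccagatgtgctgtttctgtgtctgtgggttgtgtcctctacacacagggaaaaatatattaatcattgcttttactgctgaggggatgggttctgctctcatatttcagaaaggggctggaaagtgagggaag
The Col1a2 window held 2 CCAAT boxes and 2 GC boxes, and the Col3a1 window held 1 TATA box and neither of the others. Bases G and C made up 61.0% of the Col1a2 window and 37.7% of the Col3a1 window.

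Col5a1 (12831) and Col5a2 (12832), the more widespread type V chains, stayed below the filter. Col5a1 was just outside it, with 5 mice at 1 FPKM or more. It was at 0.540 to 1.24 FPKM in Con (0.977 ± 0.249) and at 0.610 to 1.49 in Exe (0.950 ± 0.319), with an exact permutation p of 0.835. Col5a2, the neighbour of Col3a1 with no protein-coding gene between them, was at 0.150 to 0.790 FPKM in Con (0.518 ± 0.236) and at 0.250 to 0.610 in Exe (0.420 ± 0.118), with an exact permutation p of 0.446. For both, the lowest Con mouse was Con 5 and the highest Exe mouse was Exe 5. Col1a1 was just inside the filter, with 5 Con and 3 Exe mice at 1 FPKM or more.

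The sum over the 10 fibrillar genes was 28.1 to 41.9 FPKM in Con (36.6 ± 4.95) and 26.5 to 45.3 in Exe (36.6 ± 7.44), a ratio of the means of 1.001. Without Col5a3 and Col27a1, a choice made after seeing the data, Con mice were at 4.69 to 19.5 FPKM (13.2 ± 5.42) and Exe mice at 6.84 to 16.0 (9.95 ± 3.22). That ratio was 0.753. It was 0.667 without Con 5, the lowest Con mouse for this sum, whose removal raises the Con mean. The highest Con mouse was Con 3, at 19.5 FPKM. Over all 10 genes the ratio was 0.957 without Con 5 and 1.057 without Exe 1. The groups overlapped for both sums.

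**Figure D2:**
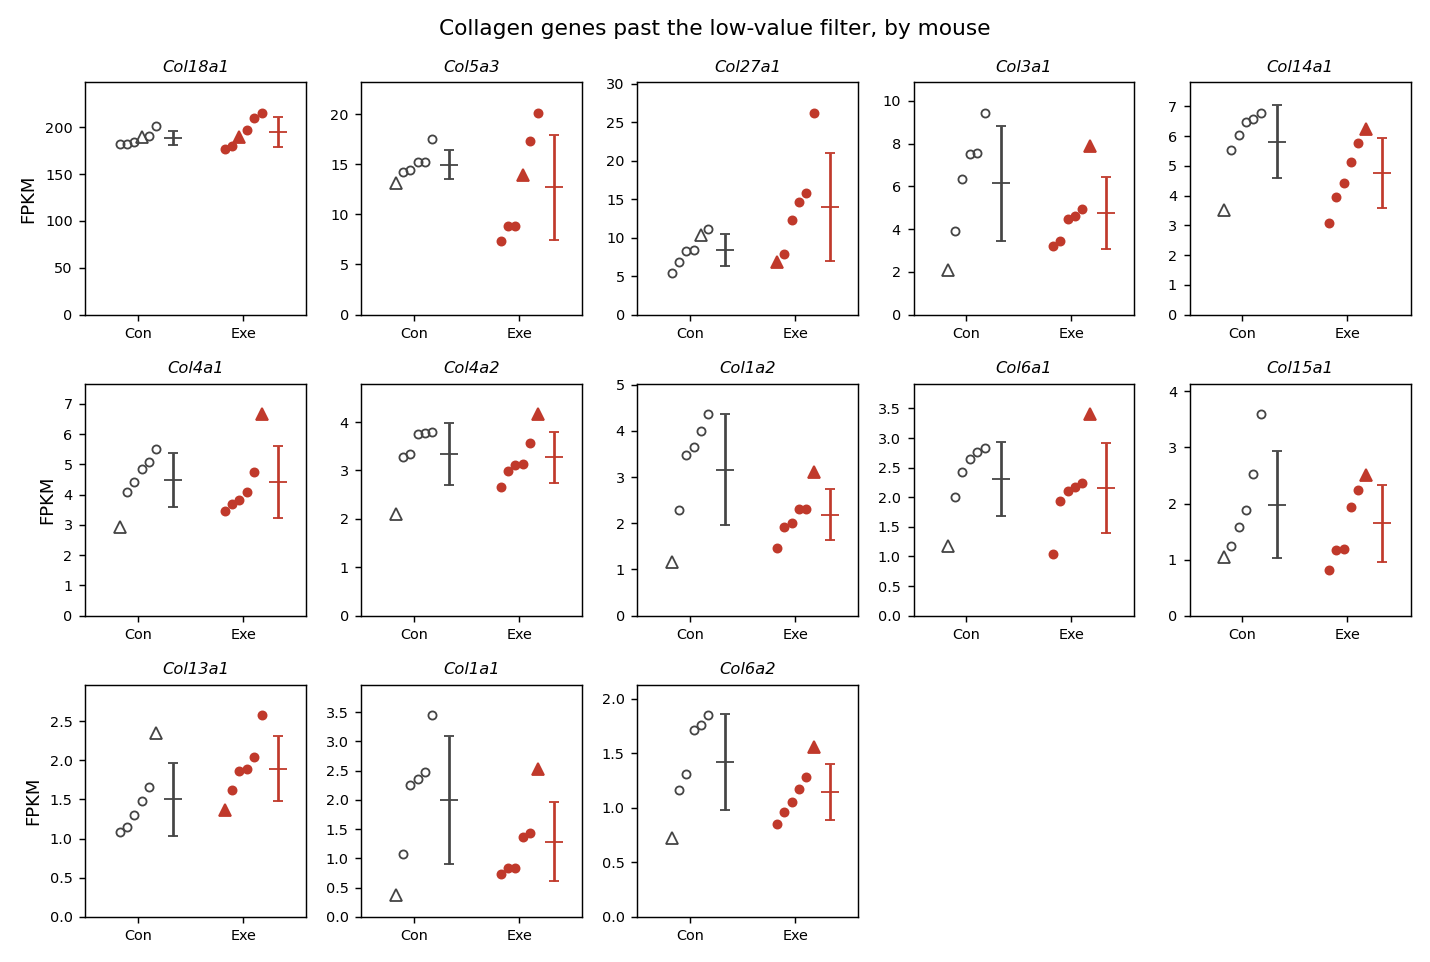
FPKM of the 13 collagen genes tested, with 1 symbol per mouse (open, Con; filled, Exe; triangles, Con 5 and Exe 5) and, beside each group of 6, the mean with its SD. The groups overlap in every panel; Con 5 is the lowest Con mouse in 10 panels and Exe 5 the highest Exe mouse in 9.

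Among the other collagens, Col14a1 (12818), a FACIT collagen of fibril surfaces, was highest. It was at 3.51 to 6.79 FPKM in Con, median 6.25 (5.82 ± 1.22), and at 3.09 to 6.24 in Exe, median 4.77 (4.76 ± 1.17). The log2 fold change was -0.25 (SE 0.15, limma adjusted p = 0.884). Of the Exe mice 1 was below all Con mice, and none was above them. Col13a1 (12817), a membrane-spanning collagen at cell contacts, was at 1.08 to 2.35 FPKM in Con, median 1.39 (1.5 ± 0.466), and at 1.36 to 2.58 in Exe, median 1.88 (1.89 ± 0.413). Its log2 fold change was 0.22 (SE 0.12, limma adjusted p = 0.851). Like Col27a1, Col13a1 was lowest in Con 1 among the Con mice and in Exe 5 among the Exe mice.

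Type VI collagen is built from the Col6a1, Col6a2 and Col6a3 chains and its beaded filaments link cells to fibrils. Col6a1 (12833) was at 1.18 to 2.84 FPKM in Con, median 2.54 (2.31 ± 0.629), and at 1.04 to 3.41 in Exe, median 2.14 (2.15 ± 0.758), with a log2 fold change of -0.08 (SE 0.17, limma adjusted p = 0.966). Col6a2 (12834) was at 0.720 to 1.85 FPKM in Con, median 1.51 (1.42 ± 0.437), and at 0.850 to 1.56 in Exe, median 1.11 (1.145 ± 0.254), with a log2 fold change of -0.16 (SE 0.12, limma adjusted p = 0.922). All 6 Exe values of Col6a2 lay within the Con range, whereas Col6a1 had 1 Exe mouse above and 1 below it. Col6a3 (12835), just outside the filter with 4 mice at 1 FPKM or more, was at 0.480 to 1.28 FPKM in Con (0.982 ± 0.299) and at 0.540 to 1.30 in Exe (0.793 ± 0.279), with an exact permutation p of 0.299. Con 5 was the lowest Con mouse and Exe 5 the highest Exe mouse for all 3 chains. The sum over the 21 other collagens was 10.01 to 15.7 FPKM in Con (14.2 ± 2.13) and 9.85 to 16.0 in Exe (12.8 ± 2.20), a ratio of 0.903. That ratio was 0.852 without Con 5 and 0.9445 without Exe 1.

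Below the filter were 26 of the 39 genes. Their highest value in any mouse was 1.49 FPKM, that of Col5a1. The 5 highest were Col5a1, Col6a3, Col16a1, Col20a1 and Col5a2. Col16a1 (107581), a FACIT collagen, was at 0.420 to 0.870 FPKM in Con and 0.370 to 0.820 in Exe, and Col20a1 (73368), of the same class, at 0.320 to 0.760 in Con and 0.50 to 0.78 in Exe. A mean of at least 0.5 FPKM was reached by 4 of the 26, a mean between 0.1 and 0.5 by 6, and 16 were lower. There were 18 with a value above 0 in all mice and 6 listed at 0 in 6 or more mice. Among these 6 were Col17a1, a collagen of skin attachment, and Col11a1, a cartilage chain. Of the 26, the mean was lower in Exe for 16, higher for 8 and equal for 2. The chains Col2a1, Col9a1, Col10a1, Col19a1, Col21a1 and Col26a1 were not among the listed genes, so they were not analysed here.

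Without Con 5, 7 of the 13 genes passed an unadjusted p of 0.05. Col1a1 (-0.55), Col1a2 (-0.51), Col3a1 (-0.47), Col14a1 (-0.36) and Col6a2 (-0.25) had log2 fold changes below 0, which made 5 of 13 lower in Exe, where 2.45% of all genes in that fit were. Col27a1 (0.64) and Col13a1 (0.30) had values above 0, 2 of 13, where 3.41% of all genes were. Con 5 was singled out for its low values in these same genes, and leaving it out raises their Con mean and narrows their Con spread, so nothing is read from these counts against the shares of all genes. The lowest adjusted p of the 13 was 0.767, for Col1a2 (0.586 to 0.999 over all alternatives run for it), so 0 passed after adjustment. Over the 12 fits that left out a mouse, the number at an unadjusted p of 0.05 ran from 0 to 7, and it was 2 or fewer in the other 11. Without Exe 5 it was 2, Col13a1 and Col27a1. Over the same fits, the log2 fold change reached its value nearest to 0 without Con 3 for Col1a1 (-0.21), Col1a2 (-0.25) and Col3a1 (-0.12), without Exe 1 for Col14a1 (-0.15), without Con 6 for Col6a2 (-0.11), without Exe 2 for Col13a1 (0.15) and without Exe 3 for Col18a1 (0.02).

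**Figure D3:**
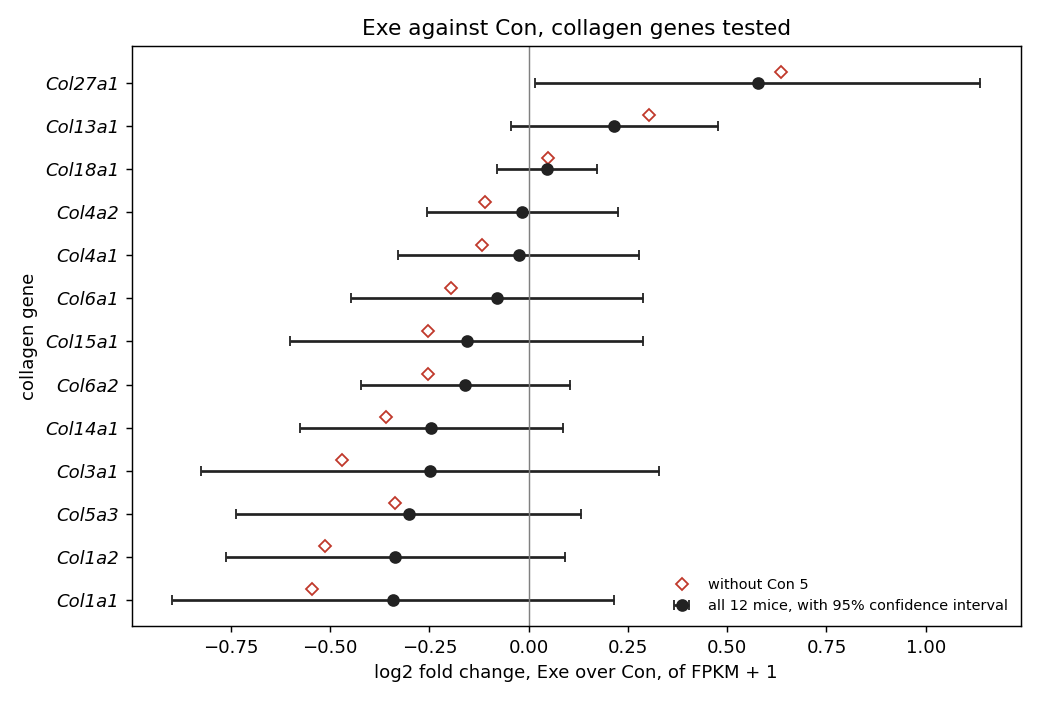
Log2 fold change of Exe over Con on log2(FPKM + 1) for the 13 collagen genes tested; dots with bars give the value and its 95% confidence interval from all 12 mice, and open diamonds the value without Con 5. The interval of Col27a1 (0.02 to 1.14) leaves out 0 before adjustment, the other 12 include it, and without Con 5 the 10 genes below 0 lie further below it.

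Marker genes of liver cell types were summed per mouse beside these values. Hepatocyte markers (8 genes) summed to 50195 to 66681 FPKM in Con and 57895 to 73169 in Exe, mostly Alb. At an unadjusted p of 0.05, 2 of the 8 were higher in Exe (Alb and Cps1), against 4.27% of all genes tested. Lower at that p was 1 of the 8 (Tat), against 1.94%, and 0 passed after adjustment. Hepatic stellate cell markers (12 genes) summed to 34.8 to 67.2 FPKM in Con and 32.8 to 57.0 in Exe. Of the 10 stellate markers tested, 9 were lower and 1 higher in Exe, where 57.5% of all genes tested were higher. The median log2 fold change of the stellate markers was -0.11, and 0 passed an unadjusted p of 0.05. Bile duct markers (6 genes) summed to 27.2 to 75.0 FPKM in Con and 25.4 to 76.8 in Exe, and both of the 2 tested, Spp1 and Sox9, had lower log2 means in Exe, with 0 at an unadjusted p of 0.05. Spp1 made up most of that sum in every mouse. Kupffer cell markers (7 genes) summed to 184 to 337 FPKM in Con and 130 to 309 in Exe, and all 7 had log2 fold changes below 0, with a median of -0.23 and 0 at an unadjusted p of 0.05. Markers of portal fibroblasts and myofibroblasts (12 genes, 2 higher and 3 lower of 5 tested) summed to 20.9 to 51.6 FPKM in Con and 25.1 to 47.2 in Exe. Con 5 had the lowest sum among the Con mice for the stellate, portal fibroblast, smooth muscle, mesothelium, Kupffer and bile duct lists, and the highest for hepatocytes and for sinusoidal endothelium (126 FPKM against 76.8 to 108 in the other Con mice). Exe 5 had the highest Kupffer sum of the Exe mice and the highest Spp1 (71.3 FPKM), while the duct markers Krt19, Krt7 and Epcam were higher in Exe 4 than in Exe 5. Of all mice, Con 6 had the highest Krt19 (18.07 FPKM), Krt7 (3.05) and Epcam (3.29). The duct list genes Sox9, Spp1 and Cftr were higher in other mice than in Con 6. None of the markers of these lists was at 0 in all mice. These lists hold no collagen gene, and the part of cell type makeup in the collagen values of Con 5, Exe 5 or the groups was not tested.

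Chains that assemble together were compared across the 12 mice, as 4 pairs. Col5a1 with Col5a2 and Col6a1 with Col6a3 were also planned, but were left out because a chain of each fell below the filter. Genes that do not assemble together were not paired, so whether these correlations are particular to partner chains was not tested. Col4a1 and Col4a2 had a Pearson's r of 0.940 (permutation p = 2e-05, adjusted over the 4 pairs 4e-05) and a Spearman's rho of 0.965 (permutation p = 2e-05, adjusted 8e-05). Without Con 5 and Exe 5, the mice farthest from the median, r was 0.943, and it was 0.962 within Con and 0.967 within Exe (exact permutation p = 0.0139 and 0.00417). Both chains were lowest in Con 5 and highest in Exe 5.

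Col1a1 and Col3a1 had an r of 0.962 (permutation p = 1e-05, the smallest that 100000 permutations can give, adjusted 4e-05) and a rho of 0.928 (permutation p = 4e-05, adjusted 8e-05). Without Con 3 and Con 5, r was 0.933, and within groups it was 0.985 in Con and 0.910 in Exe (exact permutation p = 0.00833 and 0.025). Col1a1 and Col1a2 had an r of 0.933 (permutation p = 5e-05, adjusted 6.67e-05) and a rho of 0.851 (permutation p = 0.00065, adjusted 0.000867). Without Con 3 and Con 5, r was 0.876, and it was 0.986 in Con and 0.755 in Exe (exact permutation p = 0.00417 and 0.103). The type I pair was thus not past 0.05 within the Exe group alone.

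Col6a1 and Col6a2, neighbours with no protein-coding gene between them, had an r of 0.766 (permutation p = 0.00299, adjusted 0.00299) and a rho of 0.832 (permutation p = 0.0013, adjusted 0.0013). Without Con 5 and Exe 1, r was 0.781, and it was 0.962 in Con and 0.605 in Exe (exact permutation p = 0.00694 and 0.188). The ratio of Col4a1 to Col4a2 stayed between 1.23 and 1.46 in Con and between 1.19 and 1.6 in Exe. That of Col1a1 to Col1a2 spread further, from 0.328 to 0.789 in Con and from 0.317 to 0.808 in Exe. All points of a pair share their library, so anything that moves a whole library moves both chains.

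**Figure D4:**
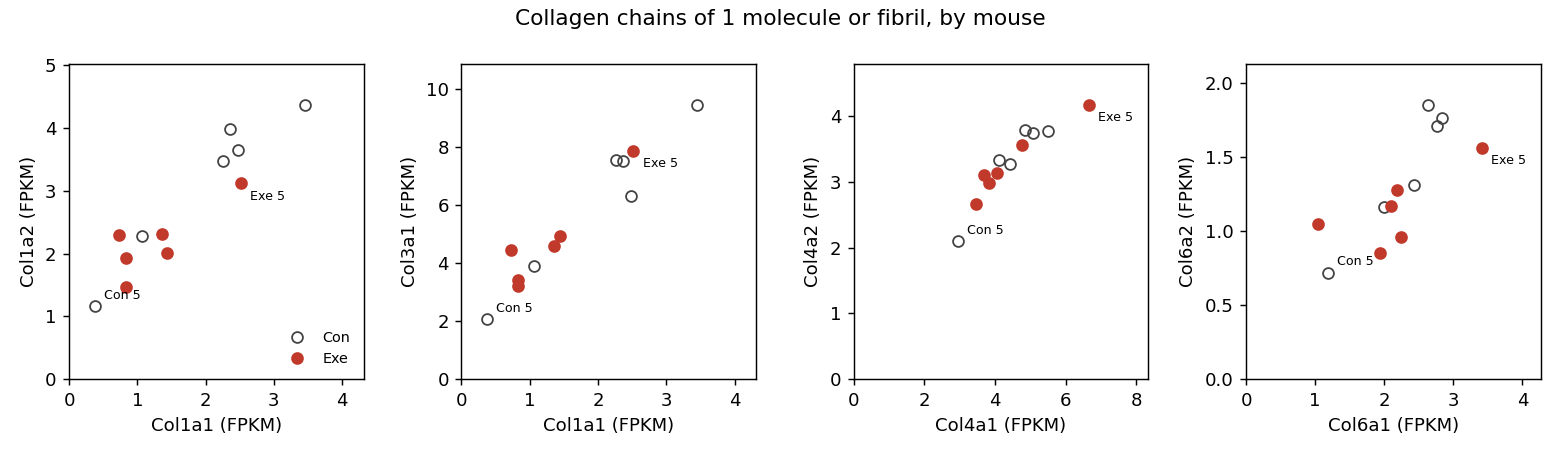
FPKM of 1 chain against another in each of the 12 mice (open, Con; filled, Exe) for Col1a1 with Col1a2, Col1a1 with Col3a1, Col4a1 with Col4a2 and Col6a1 with Col6a2, with Con 5 and Exe 5 labelled. The points rise together in each panel (r of 0.933, 0.962, 0.940 and 0.766), with Con 5 near the lower end and Exe 5 toward the upper end. The 2 groups overlap in each panel, though the highest Col1a2 values are all from Con mice.

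Genes that make, trim, cross-link, bind and break down collagen were read in the same fit, as a list of 79 genes of which 78 were in the files and 40 were tested. The log2 fold change was above 0 for 17 and below 0 for 23, where 57.5% of all genes tested were above 0. Of the 40, 0 had an adjusted p of 0.05 or less. At an unadjusted p of 0.05, 2 of the 40 were higher and 0 were lower, near the 4.27% and 1.94% of all genes tested. The 2 genes act on new chains. P4hb (18453), protein disulfide isomerase and a subunit of prolyl 4-hydroxylase, was at 461 to 549 FPKM in Con, median 499 (502 ± 32.3), and at 518 to 582 in Exe, median 569 (558 ± 27.6). The log2 fold change of P4hb was 0.15 (SE 0.06, limma p = 0.0193, adjusted p = 0.793, exact permutation p = 0.0130). Ppib (19035), a prolyl isomerase of the endoplasmic reticulum, was at 258 to 334 FPKM in Con, median 287 (290 ± 27.9), and at 299 to 350 in Exe, median 318 (320 ± 16.8). For Ppib the log2 fold change was 0.15 (SE 0.07, limma p = 0.0480, adjusted p = 0.799, exact permutation p = 0.0498). The groups overlapped for both genes, and with quantile normalization neither passed an unadjusted p of 0.05. Both proteins serve many secreted proteins besides collagen.

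The highest gene of each remaining step differed little. Mia2, an export receptor gene, had a log2 fold change of 0.03, the propeptide protease Bmp1 one of 0.01, the protease Mmp19 one of 0.04, the integrin chain Itgb1 one of -0.05, fibronectin (Fn1) one of -0.04 and the receptor Tgfbr2 one of 0.04, all with a limma adjusted p of 0.947 or more. None of the 5 cross-linking enzymes passed the filter, and the highest, Loxl2, was at 0.580 to 1.04 FPKM in Con and 0.450 to 0.970 in Exe. Of the fibril-associated proteoglycans and matrix proteins, all 6 tested (Dcn, Bgn, Lum, Sparc, Fn1 and Postn) had log2 fold changes below 0, where 57.5% of all genes tested were above 0. These 6 ran from -0.23 to -0.04 with a median of -0.13, and 0 passed an unadjusted p of 0.05. By steps, the numbers above and below 0 were 4 and 4 for the hydroxylases, 4 and 3 for folding and export, 2 and 1 for propeptide removal, 2 and 3 for breakdown and its inhibitors, 1 and 2 for receptors and 4 and 4 for regulators.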

How the data were processed

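RNA from the livers of 6 Con and 6 Exe mice was read as paired ends on a DNBSEQ platform. The authors aligned clean reads to GRCm39 with HISAT, and their processing notes also name Bowtie2 and mm10. They deposited FPKM per gene and mouse, to 2 decimals. The tool behind the FPKM is not given in the sources used here. FPKM were compared as log2(FPKM + 1) in R 4.3.3 with limma 3.58.1 (lmFit, and eBayes with a trend), over the 10241 genes that reached 1 FPKM in 6 or more mice, with Benjamini-Hochberg adjustment. Adding 1 understates the change of low genes. The fit was tested on simulated data. Single genes were also compared with an exact two-sided permutation test over the 924 splits of the mice, whose smallest p is 0.00216. Depth was estimated from the steps of low FPKM values in 78 genes and GENCODE M21 transcript lengths, at 17100000 fragments per mouse (95% bounds of the slope 16700000 and 17500000), and fragment numbers and counting error rest on it. Intervals cover the spread between mice, and counting error covers sampling of fragments only. Correlations used scipy 1.17.1, numpy 2.4.6 and pandas 2.3.3 in Python 3.11.15, and plots matplotlib 3.10.9.

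The collagen genes, their classes, the synthesis and turnover list and the marker lists were chosen with earlier results of these data known. All collagen genes past the filter were named with their values, together with the 5 highest below it, Col5a2, Col6a3, and from the synthesis list the genes at an unadjusted p of 0.05 and the highest gene of each step. Col4a4, Col4a3, Col4a5, Col4a6, Col11a1, Col17a1, Lcn2, the proteoglycans and the single marker genes were added to the names once values were known. RefSeq listed all 39 by gene ID, and was used to find neighbours. Promoter windows came from RefSeq, GRCm38.p6. Alternatives were quantile normalization, robust variance moderation, a pseudocount of 0.1, no filter, a filter at 1 FPKM in all 12 mice, the replicate number as a block, and each mouse left out in turn. The class sums without their dominant genes were added after seeing the data. Mice of 1 group are separate animals. Protein, acetylation and metabolite data were not analysed here.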

Additional observations from a re-analysis of the deposited data

Results flagged for a closer look

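A mouse stood out in its group of 6 where its gap to the nearest mouse, divided by the range, passed Dixon's 95% critical value. This held in 10 of 82 groups tested, which did not cover every gene and sum, so the 10 are not a complete tally. Chance gives about 1 in 20, but 4 of the 10 (both for Lcn2, that for Col6a3 and that for the fibrillar sum without Col5a3 and Col27a1) were examined after their values were seen, so the number cannot be set against chance. Con 5 stood low for Col4a2, at 2.10 FPKM against 3.28 to 3.79 in the other Con mice, and for the sum of the 21 other collagens, at 10.01 against 14.2 to 15.7. Exe 5 stood high for Col3a1, at 7.87 FPKM against 3.21 to 4.95, for Col6a3, at 1.30 against 0.540 to 0.820, and for the sum of the fibrillar genes without Col5a3 and Col27a1, at 15.99 against 6.84 to 10.1. Exe 5 also stood high for the sum of the bile duct list, at 76.77 FPKM against 25.4 to 40.3, of which Spp1 alone was 71.3 while Krt19, Krt7 and Epcam were higher in Exe 4, for pancreatic acinar markers, at 32.03 against 13.0 to 16.9, and for Lcn2, at 609.38 against 7.94 to 92.5. In Con 6, Krt19, Krt7 and Epcam were higher still than in Exe 4. Con 1 stood high for Lcn2, at 719.17 FPKM against 5.93 to 234. Exe 2 stood high for the sum of the heart muscle list, at 3.29 FPKM against 0.280 to 0.910. Tnnt2 alone was 2.33 of it, Myh6 was at 0.04, Tnni3 at 0.40 was below Con 2 and Con 4, and Ryr2 was listed at 0 in all mice. Past the same critical value, but not counted among the 10, were Con 2 for Col4a3, at 0.06 FPKM, and Exe 5 for the cross-linking sum, at 2.64. The same held for Col17a1 in Exe and for Col22a1 and Col28a1 in both groups, all genes below the filter. The genes of a sum and the collagens of a tissue are not independent, so the 10 counted are fewer than 10 separate observations. The causes were not tested.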

How the results depend on the processing

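The count of 0 collagen genes at an adjusted p of 0.05 was the same under every alternative run, and of 468 recomputed values 435 stayed on the same side of 0 and of their threshold, or within the spread between mice. In the main fit the smallest limma adjusted p of any gene was 0.519. A count that stays at 0 therefore says little about the collagen genes. The number of collagen genes at an unadjusted p of 0.05 was 0 instead of 1 with robust variance moderation, and 0 to 7 when single mice were left out. The number of synthesis and turnover genes at that p was 0 instead of 2 with quantile normalization, 1 with the replicate block, and 0 to 5 when single mice were left out. The ratio of summed fibrillar FPKM was 0.753 without Col5a3 and Col27a1, and that of the basement membrane genes was 0.961 without Col18a1. The log2 fold change of Col18a1 was -0.015 with quantile normalization. Leaving out single mice gave -0.131 to 0.0272 for Col4a1, -0.110 to 0.0268 for Col4a2 and -0.195 to 0.0382 for Col6a1, so their signs are not set. The causes were not tested. Without a filter, the collagen gene at an unadjusted p of 0.05 was Col4a4 and not Col27a1, and without Exe 4 it was Col5a3. Same-numbered mice had correlations of their deviations between -0.48 and 0.16, and 1 of 6 correlated best with its own number. No pairing by number was seen, though this check cannot exclude it. With the replicate block, 1 collagen gene, Col27a1, passed an unadjusted p of 0.05. For genes near 1 FPKM, the 2 decimals and the few fragments limit what can be seen.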
